A study of Mus musculus with 12 samples.

Results

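The genes described here handle zinc in cardiomyocytes: the metallothioneins Mt1 and Mt2, the zinc importer Slc39a14, the zinc exporter Slc30a1 and the zinc-sensing transcription factor Mtf1. They were taken by symbol from the deposited table, and they make up 5 of its 22915 genes. Primary cardiomyocytes of adult male C57/Bl6 mice (12 weeks old) were kept for 24 h in normoxia with PBS, mLIF, mOSM or hlOSM. Each condition has 3 libraries, which makes 12. The sample labels give 25 ng/mL for each cytokine, the methods give a lower concentration, and controls had an equivalent volume of sterile PBS. Murine LIF (mLIF) engages LIFR, murine OSM (mOSM) engages OSMR, and hlOSM is murine OSM with the AB loop of the human protein, which engages both receptors. Neither the labels nor the methods say how many mice stand behind a library or whether libraries with the same replicate number share a cell preparation, so p-values measure the spread between these libraries only.

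Metallothioneins are small proteins rich in cysteine, which bind zinc and copper and buffer free metal in the cell. MTF1 senses zinc and binds metal response elements (MREs) in the promoters of Mt1, Mt2 and Slc30a1, so that a rise in free zinc increases metallothionein and the plasma membrane exporter ZnT1, the product of Slc30a1. ZIP14, the product of Slc39a14, carries zinc, and also iron and manganese, into the cytosol. In the liver, metallothioneins and ZIP14 belong to the acute phase response to IL-6 family cytokines, which signal through gp130 and STAT3.

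Mt1 (ENSMUSG00000031765) lies at chr8:94179082-94180327 on the plus strand of mm10, and Mt2 (ENSMUSG00000031762) lies 5513 bases before it on the same strand, at chr8:94172664-94173568. Because the 2 genes are close relatives, their coding sequences are shown to see whether reads can be told apart. They are those of an annotated transcript of each gene (549 and 511 bases) on GRCm38, 5′ to 3′, with the bases that differ between them in capitals.
Mt1 coding: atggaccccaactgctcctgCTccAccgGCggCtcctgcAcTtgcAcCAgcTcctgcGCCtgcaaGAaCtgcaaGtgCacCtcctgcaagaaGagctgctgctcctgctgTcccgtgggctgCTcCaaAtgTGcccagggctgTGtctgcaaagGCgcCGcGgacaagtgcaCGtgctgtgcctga
Mt2 coding: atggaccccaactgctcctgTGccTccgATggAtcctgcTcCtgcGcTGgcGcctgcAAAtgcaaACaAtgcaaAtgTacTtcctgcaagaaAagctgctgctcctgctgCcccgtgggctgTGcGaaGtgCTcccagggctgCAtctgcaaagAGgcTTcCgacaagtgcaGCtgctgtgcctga
Both are 186 bases long, 148 bases (79.6%) are identical, and the longest identical run is 20 bases. Each holds 20 TGC or TGT codons, which encode cysteine, among 61 codons before the stop. No stretch of 75 bases in the annotated transcripts of any of the 5 genes occurred, in the sense direction, in a transcript of another gene. Exact reads of that length with known strand can thus be told apart. Reads without strand over a gene on the other strand, shorter reads and mismatches were not covered.

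Promoters are shown because Mt1, Mt2 and Slc30a1 share a known regulator, MTF1. The sequences are the 250 bases before and 16 bases from the RefSeq start site on, all on the plus strand of GRCm38.p6. Capitals mark each match to the MRE core, TGCACNC or TGCGCNC, on either strand.
Mt1 (chr8:94178839-94179104): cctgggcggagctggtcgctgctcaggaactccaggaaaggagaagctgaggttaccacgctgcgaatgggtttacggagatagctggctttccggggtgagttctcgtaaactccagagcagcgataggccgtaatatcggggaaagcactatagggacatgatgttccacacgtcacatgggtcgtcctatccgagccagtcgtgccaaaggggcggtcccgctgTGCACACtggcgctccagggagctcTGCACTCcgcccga
Mt2 (chr8:94172368-94172633): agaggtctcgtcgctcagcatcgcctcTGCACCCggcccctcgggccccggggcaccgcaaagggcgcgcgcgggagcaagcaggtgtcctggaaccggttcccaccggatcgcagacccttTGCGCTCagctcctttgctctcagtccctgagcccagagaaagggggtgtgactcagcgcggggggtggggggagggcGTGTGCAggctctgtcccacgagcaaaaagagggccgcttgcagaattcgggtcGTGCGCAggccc
Slc30a1 (chr1:191906531-191906796): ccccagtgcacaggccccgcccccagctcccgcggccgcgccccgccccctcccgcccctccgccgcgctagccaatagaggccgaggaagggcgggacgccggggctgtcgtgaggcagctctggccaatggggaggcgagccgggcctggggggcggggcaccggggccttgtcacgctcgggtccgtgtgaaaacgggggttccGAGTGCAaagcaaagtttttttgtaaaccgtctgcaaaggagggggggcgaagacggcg
The window held 4 matches in Mt2, 2 in Mt1, 1 in Slc30a1 and 0 in Mtf1. That of Mt2 ended at 94172633, before the start of the gene at 94172664, and the bases between were not searched. Among 32851 RefSeq promoter windows of this length, 22.9% held at least 1 match, 5.8% at least 2 and 0.356% at least 4. In Mt1, annotated transcripts start at more than a single position, and the 159 bases from the first to the last of these starts held 4 matches, of which 1 lies inside the window shown. The STAT motif TTCNNNGAA, which reads the same on both strands, had no match in any of these 4 windows and at least 1 match in 7.5% of all windows. A match to these letters is a description of the sequence and not a bound site.

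Depth and purity touch every value below. The deposited values are normalized counts rounded to whole numbers and summed to between 2745748 and 2911891 in a library. The number of reads behind a value is not known, and no counting error is given. All 6 cardiomyocyte markers on the list (Myh6, Tnnt2, Tnni3, Actc1, Myl2 and Ryr2) were detected in each library, and so were markers of fibroblasts, endothelium, leukocytes and smooth muscle or pericytes. In RNA from a bulk culture, fewer cells of a type and less RNA per cell cannot be told apart.

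Mt1 and Mt2 were raised by all 3 cytokines, and more by mOSM and hlOSM than by mLIF. Mt1 had normalized counts of 75, 57 and 45 in PBS, 131, 114 and 142 in mLIF, 154, 223 and 182 in mOSM, and 176, 181 and 256 in hlOSM. Mt2 had 70, 65 and 46 in PBS, 141, 123 and 145 in mLIF, 163, 193 and 202 in mOSM, and 181, 187 and 239 in hlOSM. For either gene, every cytokine library lay above every PBS library, a separation shown by 14.7% (mLIF), 20.2% (mOSM) and 22.7% (hlOSM) of all tested genes. The mLIF libraries lay below those of mOSM (12.9% of all genes) and hlOSM (14.6%), and the mOSM and hlOSM libraries overlapped. PBS replicate 3 had the lowest and hlOSM replicate 3 the highest value of both genes.

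**Figure D1:**
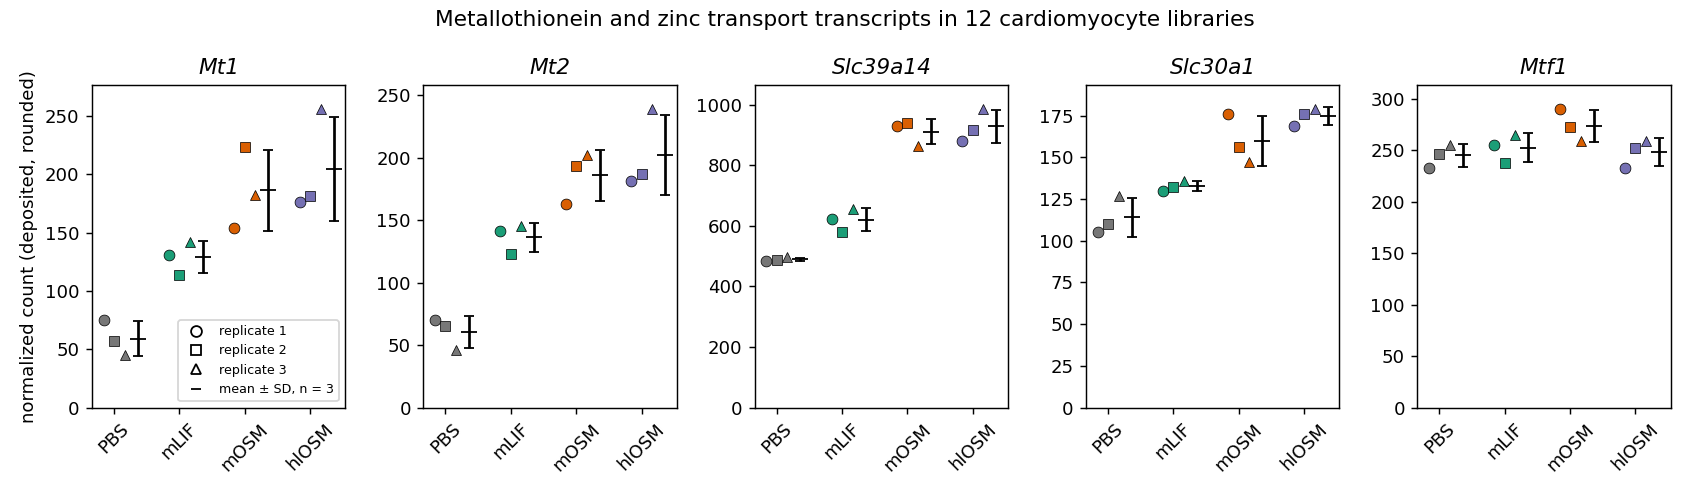
Normalized counts (deposited values, linear axis from 0) of the 5 genes in each of the 12 libraries, with the replicate number shown by the symbol and mean ± SD (n = 3) beside the points. Mt1 and Mt2 rise from 45 to 75 in PBS to 154 to 256 in mOSM and hlOSM, Slc39a14 from 484 to 496 in PBS to 863 to 987, and Mtf1 stays between 233 and 290.

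The test was limma on log2(normalized count + 1), fitted to 13184 genes, and a gene was called changed where its Benjamini-Hochberg adjusted p lay under 0.05. The deposited values held almost no difference between replicate numbers. Over 6626 genes with a mean of 100 or more, the difference of log2 values between libraries of 2 numbers, averaged over conditions, had an SD of 0.00175 to 0.00192. Whether such differences were taken out before deposit is not stated in the sources used here. Whatever their origin, deviations of same-numbered libraries sum to about 0, so the fit counts 8 residual degrees of freedom where 6 remain. Its SE and p-values below are therefore too small, and its shares of called genes too large. With a replicate block, which leaves 6, limma kept all 11 called rises of Mt1, Mt2, Slc39a14 and Slc30a1 against PBS, with limma adjusted p between 4.87e-11 and 0.00192. The share of all genes raised was then 3.39% with mLIF, 12.5% with mOSM and 14.7% with hlOSM, against 5.47%, 15.4% and 18.2% without the block.

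With mLIF, Mt1 was 2.19-fold higher than in PBS by the ratio of means (log2 fold change 1.14 ± 0.16 SE, limma adjusted p = 0.000116) and Mt2 2.26-fold (1.18 ± 0.13 SE, limma adjusted p = 1.36e-05). They ranked 66 and 56 from the top by log2 fold change among the 13184 genes. With mOSM, Mt1 was 3.16-fold higher (1.66 ± 0.16 SE, limma adjusted p = 4.1e-08) and Mt2 3.08-fold (1.62 ± 0.13 SE, limma adjusted p = 3.39e-09). With hlOSM the rises were 3.46-fold for Mt1 (1.78 ± 0.16 SE, limma adjusted p = 9.76e-09) and 3.35-fold for Mt2 (1.74 ± 0.13 SE, limma adjusted p = 7.31e-10). By rank they stood at 144 and 148 for mOSM and at 128 and 136 for hlOSM. Both genes thus stood nearer the top of the list with mLIF than with the OSM proteins, although the rise itself was smaller with mLIF.

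Among the cytokines, the difference between mLIF and hlOSM was the clearer for these genes. With hlOSM, Mt2 was higher than with mLIF by 0.56 ± 0.13 SE (limma adjusted p = 0.00445) and Mt1 by 0.64 ± 0.16 SE (limma adjusted p = 0.00633), and the call for Mt1 was lost without hlOSM replicate 3 (0.47, limma adjusted p = 0.0561). Against mLIF, mOSM gave 0.44 ± 0.13 SE for Mt2 (limma adjusted p = 0.0283) and 0.52 ± 0.16 SE for Mt1 (limma adjusted p = 0.0345). These latter calls were close to the threshold. Leaving out mLIF replicate 1 or 2 or mOSM replicate 2 or 3 ended each of them, with limma adjusted p between 0.0784 and 0.171 for Mt1 and between 0.0577 and 0.141 for Mt2. Between hlOSM and mOSM, the difference was 0.13 for Mt1 (95% interval −0.20 to 0.46, limma adjusted p = 0.915) and 0.12 for Mt2 (95% interval −0.16 to 0.39, limma adjusted p = 0.906). Even these intervals, which are too narrow as said above, hold differences of up to 0.46 and 0.39 on the log2 scale.

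The design also asks whether hlOSM, which engages both receptors, added over mOSM what mLIF added over PBS. For Mt2, mLIF added 1.18 and hlOSM 0.12 on the log2 scale, and the difference of these differences was −1.07 ± 0.19 SE (limma adjusted p = 0.0166). Of the 13184 genes, 20 (0.152%) were past the threshold in this direction. For Mt1 it was of similar size, −1.01 ± 0.22 SE, but not past the threshold (limma adjusted p = 0.0696). It was −0.31 ± 0.08 SE for Slc39a14 (limma adjusted p = 0.118), −0.19 for Mtf1 (limma adjusted p = 0.488) and −0.089 for Slc30a1 (limma adjusted p = 0.825). The calls turned on single libraries. The one for Mt2 was lost without mLIF replicate 3 (limma adjusted p = 0.0884), hlOSM replicate 1 (0.0801) or hlOSM replicate 2 (0.0729). That for Mt1 was gained without PBS replicate 1 (limma adjusted p = 0.00386) or hlOSM replicate 3 (0.0118), and that for Slc39a14 without hlOSM replicate 3 (0.0337).

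**Figure D2:**
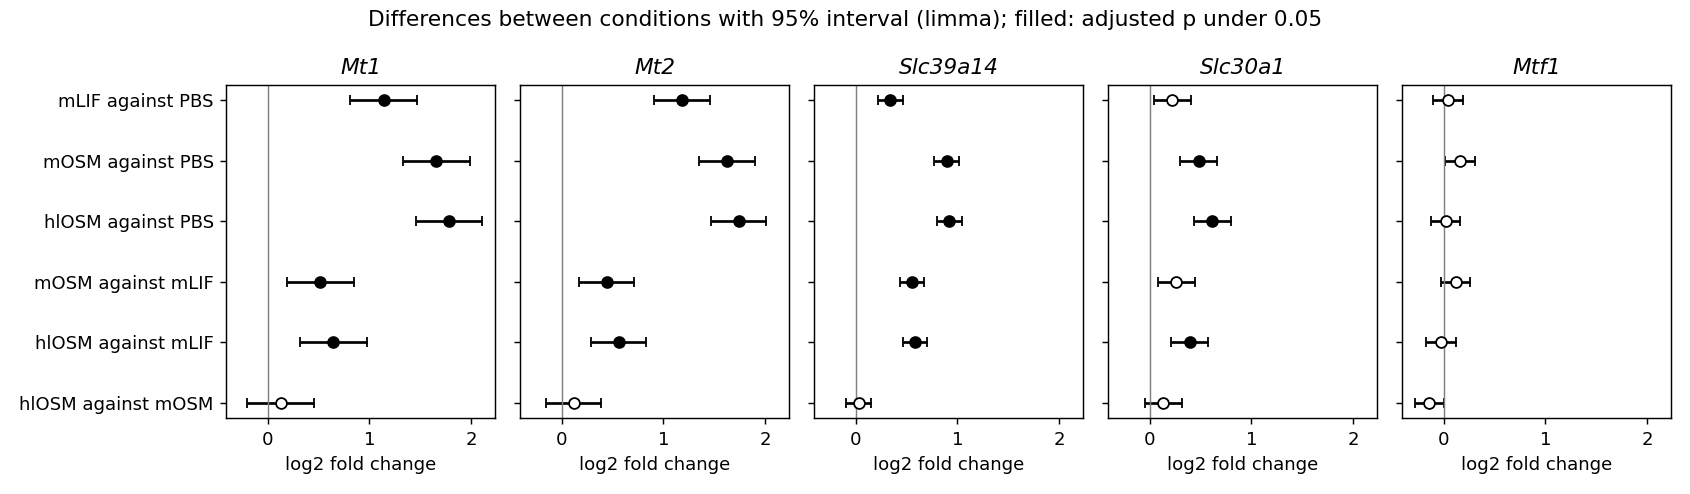
Log2 fold change (x axis) of each gene in the 6 comparisons between conditions (y axis), as estimate and 95% interval from limma, with filled points for an adjusted p under 0.05. Points of Mt1, Mt2 and Slc39a14 are filled in the top 5 rows and open in the bottom row, hlOSM against mOSM, and those of Mtf1 are open throughout.

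The 2 metallothioneins moved together from library to library. The ratio of Mt2 to Mt1 averaged 1.03 ± 0.10 (SD, n = 3) for PBS, 1.06 ± 0.03 for mLIF, 1.01 ± 0.13 for mOSM and 0.998 ± 0.056 for hlOSM, and the ranges of all 4 conditions overlapped. Over the 12 libraries the log2 values of both genes had a Pearson correlation of 0.989, and of 0.901 after the mean of each condition was taken out. These libraries share conditions and normalization, and the correlation is a description only.

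**Figure D3:**
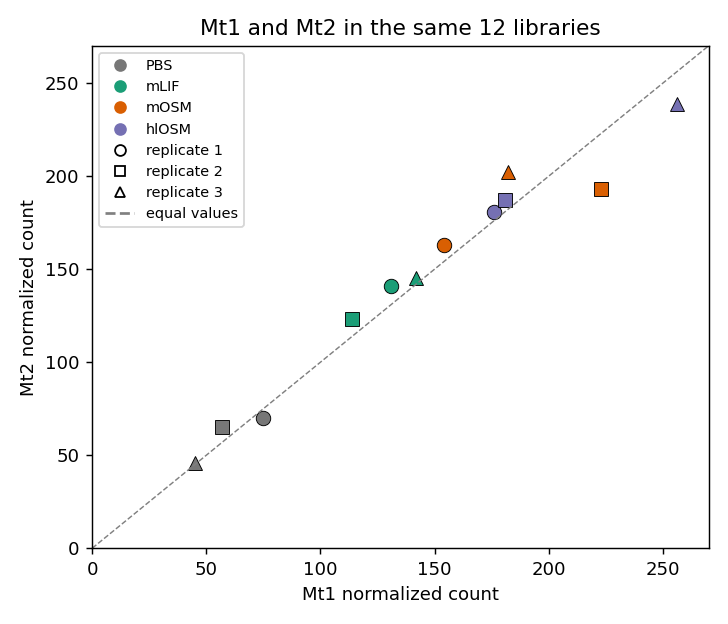
Mt2 against Mt1 normalized counts in the 12 libraries, with condition by color, replicate number by symbol and a dashed line at equal values. All libraries lie near the line, from 45 and 46 in PBS replicate 3 to 256 and 239 in hlOSM replicate 3.

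Levels of different genes can only be compared per length. Per kilobase of annotated exon, the level of Mt2 was 103 for PBS, 232 for mLIF, 316 for mOSM and 344 for hlOSM, and that of Mt1 47.4, 104, 150 and 164. In the same unit Slc39a14 rose from 46.4 in PBS to 88.0 in hlOSM, while Slc30a1 (21.7 to 33.3) and Mtf1 (27.5 to 27.8) stood near the median of all tested genes, which was 23.5 in PBS and 24.1 in hlOSM. By this level Mt2 ranked 1268 of 13177 genes in PBS and 50 in hlOSM, and Mt1 ranked 3715 and 462. The order within the set depends on the length taken. The exons of Mt1 together span 1246 bases, whereas its lowest-numbered transcript has 549, against 588 and 511 for Mt2. With the lowest-numbered transcript of each gene as length, an alternative chosen after the values were seen, PBS levels were 118 for Mt2 and 107 for Mt1, 233 for Slc39a14, 32.1 for Mtf1 and 21.7 for Slc30a1. The ratio of Mt2 to Mt1 per length in PBS thus went from 2.19 to 1.11.

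Mt2 shares 73.5% of its exonic bases with Gm45774, a gene annotated on the other strand. Gm45774 had normalized counts of 3, 1 and 4 in PBS, 7, 11 and 11 in mLIF, 11, 14 and 5 in mOSM, and 19, 18 and 26 in hlOSM. It reached the minimum of 10 in no PBS library and entered the fit only through cytokine libraries, so no call is drawn from it. It was named after its values were seen. The library kit keeps strand, but the strand setting of the counting is not given in the sources used here, and reads that fell on more than 1 gene were left out by the authors. If the counting ignored strand, reads over the shared bases were left out of both genes, and other reads were not separated by strand. The values of Mt2, its levels per length and its ratios to Mt1 would then be too low. Which setting was used could not be tested. Mt1 overlaps no annotated gene in its exons and gave nearly the same fold changes as Mt2.

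Slc39a14 (ENSMUSG00000022094, chr14:70303469-70351425, minus strand) was raised by each cytokine with little spread. It had 484, 488 and 496 in PBS, 624, 581 and 657 in mLIF, 931, 939 and 863 in mOSM, and 881, 918 and 987 in hlOSM. The conditions formed 3 separate levels, PBS, then mLIF, then mOSM and hlOSM together, and no libraries of different levels overlapped. Of all tested genes, 14.7% (mLIF), 20.2% (mOSM) and 22.7% (hlOSM) lay so above PBS, and 12.9% (mOSM) and 14.6% (hlOSM) above mLIF. The rise was 1.27-fold with mLIF (log2 fold change 0.34 ± 0.06 SE, limma adjusted p = 0.000803), 1.86-fold with mOSM (0.89 ± 0.06 SE, limma adjusted p = 1.15e-10) and 1.90-fold with hlOSM (0.92 ± 0.06 SE, limma adjusted p = 5.09e-11). Compared with mLIF it was higher by 0.55 with mOSM (limma adjusted p = 5.3e-07) and by 0.58 with hlOSM (limma adjusted p = 1.99e-07). The importer thus separated the OSM proteins from mLIF at smaller adjusted p than did the metallothioneins, with smaller fold changes against PBS. Between hlOSM and mOSM it differed by 0.03, with a 95% interval of −0.09 to 0.15 (limma adjusted p = 0.957).

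Slc30a1 (ENSMUSG00000037434, chr1:191906767-191913247, plus strand), the exporter, rose with the OSM proteins. Its normalized counts were 105, 110 and 127 in PBS, 130, 132 and 136 in mLIF, 176, 156 and 147 in mOSM, and 169, 176 and 179 in hlOSM. The libraries of every cytokine lay above those of PBS, as in 14.7% (mLIF), 20.2% (mOSM) and 22.7% (hlOSM) of all tested genes. Those of mOSM and hlOSM lay above those of mLIF (12.9% and 14.6% of all genes). The rise was 1.40-fold with mOSM (log2 fold change 0.48 ± 0.09 SE, limma adjusted p = 0.000184) and 1.53-fold with hlOSM (0.62 ± 0.09 SE, limma adjusted p = 7.57e-06). With mLIF the difference was 0.22 ± 0.09 SE, with a 95% interval of 0.04 to 0.40, and did not pass the test over all genes (limma adjusted p = 0.111). Against mLIF, hlOSM was higher by 0.39 (limma adjusted p = 0.00279), and mOSM by 0.26 (limma adjusted p = 0.0545). The difference between mOSM and mLIF passed the threshold without mOSM replicate 3 (limma adjusted p = 0.0325), with trimmed-mean factors (0.0412), with only the libraries compared (0.0489) and with a minimum of 50 (0.0499), and had 0.124 with the replicate block. Between hlOSM and mOSM, the difference was 0.13, with a 95% interval of −0.05 to 0.31 (limma adjusted p = 0.778). A gene on the other strand, 1700034H15Rik, covers 8.92% of its exonic bases and had normalized counts of 1 to 13.

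Mtf1 (ENSMUSG00000028890, chr4:124802104-124849800, plus strand), the regulator, was not called in any comparison. Its values were 233, 246 and 255 in PBS, 255, 237 and 265 in mLIF, 290, 272 and 259 in mOSM, and 233, 252 and 259 in hlOSM. The mOSM libraries lay just above those of PBS, as in 20.2% of all tested genes, and all other pairs of conditions overlapped. Against PBS its log2 fold change was 0.04 with mLIF (95% interval −0.10 to 0.19, limma adjusted p = 0.741), 0.16 with mOSM (0.01 to 0.31, limma adjusted p = 0.0878) and 0.02 with hlOSM (−0.13 to 0.16, limma adjusted p = 0.855). The difference with mOSM passed the threshold only when mOSM replicate 3 was left out (0.20, limma adjusted p = 0.0469). Its exons overlap those of 1110065P20Rik on the other strand by 8.09%, and this gene had normalized counts of 11 to 26.

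The 5 genes, like the lists below, were chosen with earlier results of these data known, so counts beside the shares of all genes are descriptions. Of the 5 genes, 3 were raised by mLIF, where 5.47% of all tested genes were, 4 by mOSM (15.4%) and 4 by hlOSM (18.2%), and none was lowered (4.44%, 15.8% and 19.8% of all genes). The median log2 fold change of the 5 was 0.34, 0.89 and 0.92, beside 0.00037, −0.0043 and −0.0053 over all genes. Against mLIF, 3 were higher with mOSM, where 6.05% of all genes were, and 4 with hlOSM, where 7.42% were. Between hlOSM and mOSM limma called 0 of the 5. Of all genes 14 (0.106%) were called there, and 987 (7.49%) had an unadjusted p under 0.05, none of which was Mt1, Mt2, Slc39a14, Slc30a1 or Mtf1.

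Other zinc importers of the SLC39 family were raised in part, and none was lowered. Of 13 importers besides Slc39a14, 9 were tested, since Slc39a2, Slc39a4, Slc39a5 and Slc39a12 did not reach the minimum or were not analysed here. mLIF raised 3 of them, mOSM 5 and hlOSM 6, against the same shares of all genes as above (5.47%, 15.4% and 18.2%). The median log2 fold change was 0.16, 0.36 and 0.42. Slc39a10, which encodes the plasma membrane importer ZIP10, gave the steadiest rise (0.38, 0.71 and 0.75 for mLIF, mOSM and hlOSM, limma adjusted p = 0.000887, 2.51e-08 and 6.99e-09). Slc39a1 rose by 0.25, 0.40 and 0.45 (limma adjusted p = 0.0234, 9.55e-05 and 1.88e-05). Slc39a6 had 0.16 with mLIF, not past the threshold, and rose by 0.36 with mOSM and 0.38 with hlOSM (limma adjusted p = 0.000471 and 0.000222).

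Slc39a8, which encodes ZIP8, the closest relative of ZIP14, had mean normalized counts of only 16.7 in PBS and 16 in mLIF. It rose to 34.7 with mOSM (log2 fold change 1.03, limma adjusted p = 0.000803) and was at 26.3 with hlOSM (0.62, limma adjusted p = 0.0263), where its libraries overlapped those of PBS. Slc39a13, an importer of intracellular membranes, rose by 0.31 with mLIF (limma adjusted p = 0.0148) and by 0.42 with hlOSM (limma adjusted p = 0.000196), and had 0.18 with mOSM (limma adjusted p = 0.0767). Slc39a9 rose with mOSM (0.23, limma adjusted p = 0.0232), and Slc39a11 with hlOSM (0.70, limma adjusted p = 0.0152). Several of these calls rest on single libraries. Those of Slc39a1 and Slc39a13 with mLIF were lost without PBS replicate 2 or 3 or mLIF replicate 2 or 3, and that of Slc39a1 also without mLIF replicate 1 (limma adjusted p of 0.0546 to 0.0914). That of Slc39a9 was lost without PBS replicate 3 or mOSM replicate 1 or 3 (0.0526 to 0.0965), and that of Slc39a11 without PBS replicate 2 or hlOSM replicate 3 (0.0725 and 0.117). That of Slc39a8 with hlOSM was lost without PBS replicate 1 or 2 or hlOSM replicate 1 or 2 (0.059 to 0.149).

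Zinc exporters besides Slc30a1 numbered 10 on the list and 6 in the fit, of which Tmem163 reached the minimum of 10 in no PBS library and entered only through mOSM and hlOSM. Of the other 5, mLIF raised 1 (5.47% of all genes), mOSM raised 3 (15.4%) and hlOSM 3 (18.2%), while 1 fell under mOSM, where 15.8% of all genes did. Slc30a2, Slc30a3, Slc30a8 and Slc30a10 did not reach the minimum or were not analysed here. The median log2 fold change of the 5 was 0.28, 0.45 and 0.39. Tmem163, a zinc efflux transporter, had normalized counts of 4, 2 and 4 in PBS, 8, 5 and 4 in mLIF, 14, 25 and 23 in mOSM, and 17, 29 and 30 in hlOSM. Since only its mOSM and hlOSM libraries let it into the fit, no call is drawn from it.

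Slc30a4, whose product ZnT4 loads zinc into vesicles, rose by 0.31, 0.48 and 0.61 with mLIF, mOSM and hlOSM (limma adjusted p = 0.0218, 9.64e-05 and 4.1e-06). Slc30a7, whose product loads the Golgi, rose by 0.47 with mOSM and 0.63 with hlOSM (limma adjusted p = 0.000371 and 9.58e-06), and had 0.28 with mLIF (0.0547). Slc30a6 rose by 0.45 with mOSM and 0.39 with hlOSM (limma adjusted p = 0.0181 and 0.0342). Slc30a9 fell by 0.15 on the log2 scale with mOSM (limma adjusted p = 0.0354). The mLIF call of Slc30a4 was lost without PBS replicate 2 or 3 or mLIF replicate 1 or 3 (limma adjusted p of 0.0657 to 0.0941), and that of Slc30a9 without PBS replicate 1 or 3 or mOSM replicate 1 or 2 (0.0763 to 0.127). Slc30a6 lost its call with mOSM without PBS replicate 3 or mOSM replicate 1 (0.0602 and 0.0744), and with hlOSM without PBS replicate 1 or 3 or hlOSM replicate 3 (0.0799 to 0.186).

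**Figure D4:**
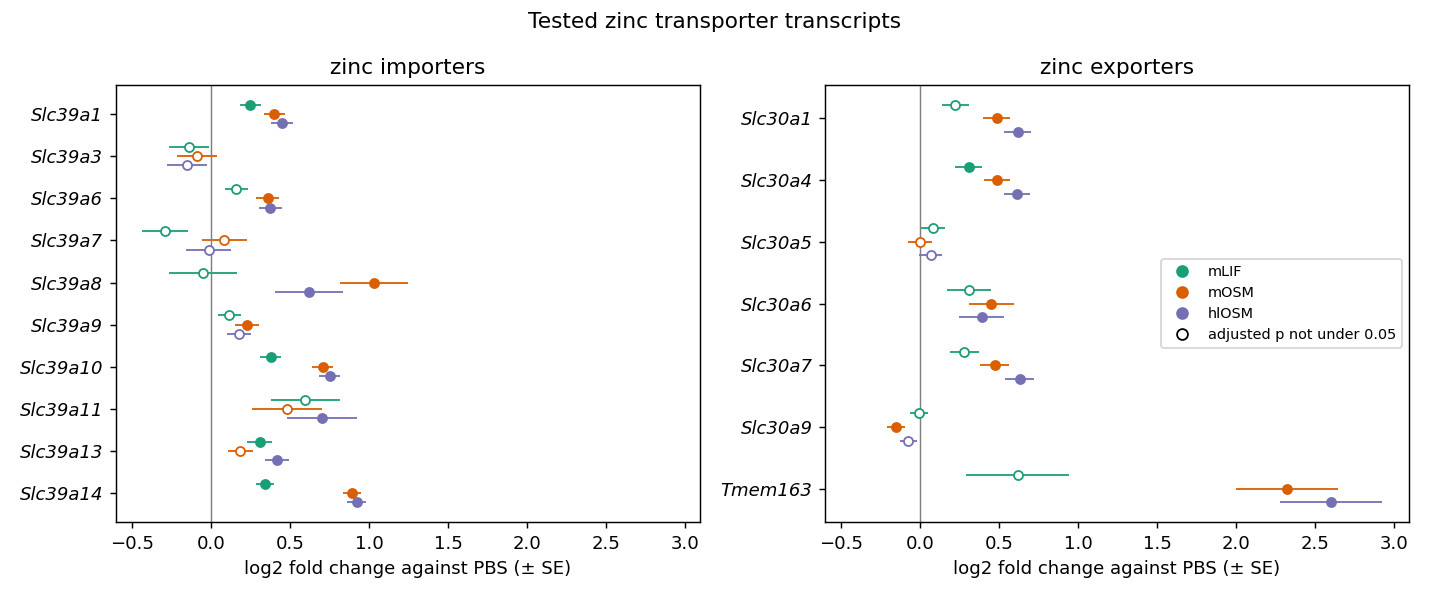
Log2 fold change against PBS (x axis, estimate ± SE from limma) of each tested zinc importer (left) and exporter (right), with the cytokine by color and open symbols where the adjusted p was not under 0.05. Slc39a14 and Slc39a10 lead the importers that rose with all 3 cytokines. Tmem163, at 2.32 and 2.60 with the OSM proteins, passed the minimum through these alone, so its place and filled symbols are not read as a result.

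The remaining relatives could not be followed. Mt3 was not analysed here, and Mt4 was listed at 0 or 1 in each library, so that Mt1 and Mt2 were the metallothioneins tested.

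Genes beyond Mt1, Mt2 and Slc30a1 that are known to respond to MTF1 did not share a direction. Of 5 on the list, 2 rose with each cytokine (Ndrg1 and Slc39a10, which MTF1 represses in other cells), where 5.47%, 15.4% and 18.2% of all genes rose, and 1, Pgf, fell with mOSM and hlOSM, where 15.8% and 19.8% of all genes fell. Ndrg1, a stress-responsive gene that also responds to hypoxia, rose by 0.85, 1.57 and 1.71 with mLIF, mOSM and hlOSM (limma adjusted p = 0.00325, 2.99e-07 and 6.59e-08), and the call for mLIF was lost in a robust fit (0.0766). Pgf, which encodes placental growth factor, had −0.24 with mLIF (limma adjusted p = 0.511), −0.74 with mOSM (0.0107) and −1.07 with hlOSM (0.000415). Gclc, for glutathione synthesis, and Selenow were not called, with log2 fold changes between −0.19 and 0.12. The median over the 5 genes was 0.02, 0.07 and 0.12.

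Copper shares metallothionein as a ligand, and few genes that handle it were called. Of 9 tested among 11 on the list, 1 rose with mLIF (5.47% of all genes), 2 rose and 1 fell with mOSM (15.4% and 15.8%), and 2 rose and 1 fell with hlOSM (18.2% and 19.8%), shares near those of all genes. The medians were −0.08, 0.04 and −0.02, and with the replicate block 0 rose with mLIF and 0 with mOSM. Slc31a2, a relative of the copper importer Slc31a1, rose by 0.49 with mLIF (limma adjusted p = 0.0235) and by 0.58 with hlOSM (0.00155), and Slc31a1 by 0.22 with mOSM (limma adjusted p = 0.03) and 0.23 with hlOSM (0.0185). Cox17, a copper chaperone of cytochrome oxidase, rose by 0.34 with mOSM (limma adjusted p = 0.0427). Sod1, the copper and zinc superoxide dismutase, fell by 0.29 on the log2 scale with mOSM (limma adjusted p = 0.00741) and fell by 0.30 with hlOSM (0.00431). Single libraries ended several of these calls. Those of Slc31a2 with mLIF (without PBS replicate 3 or mLIF replicate 2 or 3), Slc31a1 with mOSM (without PBS replicate 1 or 2 or mOSM replicate 1 or 3), Slc31a1 with hlOSM (without PBS replicate 2 or hlOSM replicate 2), Cox17 (without PBS replicate 2 or mOSM replicate 2 or 3) and Sod1 with mOSM (without mOSM replicate 1) then had limma adjusted p between 0.0563 and 0.227.

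Acute phase and STAT3-responsive genes gave the frame in which metallothionein and ZIP14 are known from liver. Of 12 on the list 5 entered the fit, of which Lcn2 reached the minimum of 10 in no PBS library and came in only through cytokine libraries. The other 4 rose with each cytokine, where 5.47%, 15.4% and 18.2% of all genes did, and the 7 not tested did not reach the minimum or were not analysed here. Those that rose include genes of metal handling. Cp encodes ceruloplasmin, the copper-carrying ferroxidase, and rose by 0.31, 0.42 and 0.57 with mLIF, mOSM and hlOSM (limma adjusted p = 0.00226, 1.24e-05 and 1.32e-07). Steap4, a metalloreductase for iron and copper, rose by 1.90, 3.37 and 3.51 (limma adjusted p = 0.000154, 3.45e-09 and 1.19e-09). Lcn2, which binds iron-carrying siderophores, had 3, 5 and 1 in PBS, 10, 8 and 13 in mLIF, 17, 13 and 27 in mOSM, and 11, 11 and 21 in hlOSM, and no call is drawn from it. Serpina3n, a protease inhibitor, rose by 2.34, 3.39 and 3.49, and Socs3, the feedback inhibitor of gp130 signaling, by 1.01, 2.08 and 2.17.

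The genes most alike in pattern to each member were taken by Pearson correlation of log2 values over the 12 libraries, among 8669 genes whose normalized counts averaged 50 or more. The libraries share conditions and normalization, so these are descriptions. After Mt2 (0.989), Mt1 was most like Ier3 (0.988) and Serpina3n (0.987). Mt2 was most like Serpina3n (0.997), Hspb1 (0.993), which encodes a small heat shock protein, and Star (0.992), which encodes a mitochondrial cholesterol transport protein. Slc39a14 reached 0.987 with Gadd45g and 0.985 with Hipk1, and Slc30a1 was most like Thap2 (0.972), Adarb1 (0.969) and Hs2st1 (0.966). Mtf1 reached 0.920 with Gorasp1, 0.911 with Trub1 and 0.896 with Man1c1. Its correlation was 0.347 with Mt1, 0.343 with Mt2, 0.488 with Slc39a14 and 0.462 with Slc30a1. After the mean of each condition was taken out, these were −0.0485, −0.117, 0.857 and 0.771. Serpina3n rose from a mean of 31.7 in PBS to 153 in mLIF, 318 in mOSM and 347 in hlOSM, in the same order as Mt2.

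Markers of other cell types moved along with the conditions. The 5 endothelial markers (Pecam1, Cdh5, Kdr, Tie1 and Emcn) summed to 922 to 971 under PBS, 916 to 954 under mLIF, 1165 to 1256 under mOSM and 1151 to 1268 under hlOSM. With mOSM and with hlOSM 4 of the 5 rose, where 15.4% and 18.2% of all genes did. With mLIF 0 of 5 rose (5.47% of all genes) and 1 fell (4.44%). The 4 smooth muscle and pericyte markers (Acta2, Myh11, Rgs5 and Pdgfrb) summed to 495 to 658 under PBS, 456 to 508 under mLIF, 260 to 315 under mOSM and 272 to 279 under hlOSM. All 4 fell with mOSM and with hlOSM, where 15.8% and 19.8% of all genes did. The part of these cell types in the rises of Slc39a14, Slc30a1, Mt1 and Mt2 was not tested.

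The 6 cardiomyocyte markers summed to 13126 to 14511 under PBS, 11199 to 12326 under mLIF, 10310 to 12074 under mOSM and 10645 to 11046 under hlOSM, with 4, 5 and 5 of the 6 lowered. The 6 fibroblast markers (Col1a1, Col1a2, Pdgfra, Dcn, Tcf21 and Postn) summed to 1818 to 2080, 1740 to 1773, 1594 to 1767 and 1517 to 1566 in the same order. With mLIF 1 of these fell, with mOSM 3 fell and 1 rose, and with hlOSM 5 fell and 1, Dcn, rose. The 5 leukocyte markers (Ptprc, Cd68, Adgre1, Csf1r and Lyz2) summed to 295 to 311, 276 to 312, 334 to 378 and 309 to 380, of which Cd68 rose with each cytokine and Lyz2 fell with hlOSM. Beside these counts, 4.44%, 15.8% and 19.8% of all genes fell with mLIF, mOSM and hlOSM, and 5.47%, 15.4% and 18.2% rose. No marker was at 0 in any library. How much of each transcript came from cardiomyocytes was not measured here.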

How the data were processed

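RNA of cultured cardiomyocytes was sequenced with a kit that keeps strand. Per the methods and the submitters' processing notes, the authors trimmed reads and aligned these with STAR 2.7.7a to mm10, counted those lying on exons of 1 gene with featureCounts 1.6.5 and normalized between libraries. The deposited values are scores on a normalized count scale, rounded to whole numbers by the authors and not divided by length. The normalization and the strand setting are not given in the sources used here. Since the values are not raw counts, no test built for raw counts was run.

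Groups came from the sample titles. The 13184 genes that reached 10 in 3 or more libraries entered 1 limma fit (limma 3.58.1, R 4.3.3) of log2(normalized count + 1) over the 4 conditions, with a mean-variance trend. Its threshold was 0.05 for the Benjamini-Hochberg adjusted p (two-sided) over these genes. Promoters came from RefSeq (GRCm38.p6), and Slc39a14 was not in that table. Lengths, transcripts and overlaps came from GENCODE vM21, which gives the 5 genes the same coordinates as the deposited table.

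The members and the lists were chosen with earlier results of these data known. Named besides the members were list genes past the threshold in at least 1 comparison against PBS, genes overlapping a member, and the 3 genes most like each member, of which 1 is not reported here. Alternatives were pseudocounts of 0.1 and 5, no filter, a minimum of 50, trimmed-mean scaling factors recomputed by own code, quantile normalization, robust empirical Bayes, only the libraries compared, a replicate block, each library left out, and other transcript lengths. On simulated data for hlOSM against PBS with 13184 genes, limma called 175 of 200 genes with a log2 change of 1 and 114 of 200 with one of 0.5, each with 8 false calls. The simulated libraries varied independently of each other, whereas deviations of same-numbered libraries in the deposited values sum to about 0. These numbers therefore do not carry over to the fits above.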

Additional observations from a re-analysis of the deposited data

Results flagged for a closer look

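The rise of Mt2 with mLIF over PBS and with hlOSM over mOSM differed by −1.07 on the log2 scale (limma adjusted p = 0.0166, 95% interval −1.45 to −0.68). It is given here because, by this test, the step from mOSM to hlOSM differed from the step from PBS to mLIF. Since hlOSM is a separate protein and not mOSM with a LIFR ligand added, its step over mOSM does not isolate LIFR. The means of Mt2 were 60.3 (PBS), 136 (mLIF), 186 (mOSM) and 202 (hlOSM). The estimate was negative in each of 20 alternatives, between −1.19 and −0.89, and past the threshold in 16 of them. Mt1 had −1.01, which passed in 3 of 20 alternatives. The pattern was not particular to Mt2. Among the genes picked above for their likeness to it, Serpina3n had −2.23 (limma adjusted p = 0.00293), Hspb1 −0.867 (0.0166) and Star −1.615 (0.0329).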

How the results depend on the processing

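The 11 called rises of Mt1, Mt2, Slc39a14 and Slc30a1 against PBS kept their direction and stayed past the threshold under all 165 alternative values, and of 290 values for all 19 called differences among the 5 genes, 17 lost the call, all in Mt1 or Mt2 and none against PBS. The number of the 5 genes past the threshold went from 3 to 1 for mOSM against mLIF under quantile normalization, to 2 with no filter or a robust fit and to 4 with trimmed-mean factors, a minimum of 50 or only the libraries compared, and lay between 1 and 3 when single libraries were left out. For the difference of hlOSM minus mOSM from mLIF minus PBS it went from 1 to 2 with a minimum of 50 and to 0 with quantile normalization, and lay between 0 and 3 when single libraries were left out. Mt1 for mOSM against mLIF also lost its call with no filter (limma adjusted p = 0.0527), quantile normalization (0.0688) and the robust fit (0.0995), and Mt2 with quantile normalization (0.0619).

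Reversals of sign arose only in differences near 0 that were not called, and the cause was not tested. Mtf1 with hlOSM against PBS had −0.00011 under quantile normalization and lay between −0.016 and 0.063 when single libraries were left out, and against mLIF between −0.069 and 0.019. For hlOSM against mOSM, the corresponding ranges were −0.045 to 0.26 for Mt1, −0.0097 to 0.19 for Mt2 and −0.018 to 0.064 for Slc39a14.

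Whether same-numbered libraries deviate together could not be tested. Since the values held almost no difference between replicate numbers (SD of 0.0019 on the log2 scale over 6626 genes for number 3 against 1), deviations of same-numbered libraries sum to about 0 over the conditions. The correlations of −0.406 to −0.151 over 18 same-numbered pairs are negative by that construction and say nothing on pairing. In a fit with a replicate block, 3, 4 and 4 of the 5 genes were raised by mLIF, mOSM and hlOSM, 3 were higher with mOSM and 4 with hlOSM than with mLIF, and no call of a member changed. The block lowered the calls over all genes from 9.91% to 5.95% with mLIF, from 31.2% to 25.3% with mOSM and from 37.9% to 31.2% with hlOSM. It left 2, 4 and 5 raised importers and, Tmem163 aside, 1, 2 and 2 raised exporters, without the calls of Slc39a1 and Slc31a2 with mLIF, Slc39a9, Slc30a6, Slc30a9, Slc31a1 and Cox17 with mOSM, and Slc39a8 and Slc30a6 with hlOSM. Of 795 alternative values for 54 called differences of list genes against PBS (Gm45774, Lcn2 and Tmem163 counted), 66 lost the call and 0 reversed. The number of reads behind a value is unknown, which limits what can be said of genes with low values such as Gm45774, Slc39a8, Lcn2 and Tmem163.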
